A study of Mus musculus with 6 samples.

Results

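The hemoglobin and erythroid genes described here are 7: the adult alpha-globin genes Hba-a1 and Hba-a2, the adult beta-globin genes Hbb-bs and Hbb-bt, the erythroid heme synthesis enzyme gene Alas2, the carbonic anhydrase gene Car2 and the red cell anion exchanger gene Slc4a1. They were chosen by name from the authors' table of 17744 genes, and all 7 are listed there. The libraries are bulk RNA-seq of mouse spleen cells sorted as CD45+ CD3+ CD8a+, from 3 control samples of genotype wt and 3 samples labelled fus irradiation, a focused ultrasound treatment that concentrates sound waves on a tissue. The genotype field of the treated samples repeats the treatment, and no strain, sex, age, dose, interval after treatment or sham procedure is given. Nothing in the labels says that the libraries of a group come from separate animals, so p-values measure only the spread between these samples. Below, the treated libraries are called ultrasound 1, 2 and 3, as numbered in their titles.

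Hemoglobin is a tetramer of alpha-globin and beta-globin chains, each carrying a heme group, and it is made by developing red cells. Heme synthesis in those cells starts with the enzyme encoded by Alas2, carbonic anhydrase hydrates carbon dioxide, and the anion exchanger encoded by Slc4a1 carries bicarbonate across the red cell membrane. The mouse spleen contains red pulp, where old red cells are cleared, and it can also form new red cells. Mature red cells lack a nucleus but reticulocytes still hold globin mRNA, and T cells are not known for making hemoglobin. The sort gate asked for CD45, CD3 and CD8a together, a combination that red cells and their late precursors do not carry.

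The globin pairs are near copies of each other, which bears on every value given per copy. In mm10, the build named in the submitters' processing notes, Hba-a1 lies at chr11:32283511-32284465 and Hba-a2 at chr11:32296489-32297298, both on the plus strand. Hbb-bs lies at chr7:103826534-103828096 and Hbb-bt at chr7:103812524-103813996, both on the minus strand (GENCODE M21, GRCm38). Each main globin transcript has 3 exons. The coding sequences of Hba-a1 and Hba-a2 are 429 bases long and differ at 1 base, C381T (the first gene has C at coding position 381 and the second T, counted from the A of the start codon). Those of Hbb-bs and Hbb-bt are 444 bases long and also differ at 1 base, C417T. The stretches around these bases, in the last exon, are shown because a read that covers no such base or untranslated difference cannot be assigned to a copy. The differing base is in capitals:
Hba-a1, chr11:32284313-32284373: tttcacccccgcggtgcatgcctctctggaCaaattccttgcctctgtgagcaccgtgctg
Hba-a2, chr11:32297130-32297190: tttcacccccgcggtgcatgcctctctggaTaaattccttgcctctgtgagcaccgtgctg
Hbb-bs, chr7:103826665-103826722: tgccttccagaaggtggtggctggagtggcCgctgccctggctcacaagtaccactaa
Hbb-bt, chr7:103812656-103812713: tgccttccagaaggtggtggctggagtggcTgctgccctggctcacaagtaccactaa
The longest run that the main transcripts share is 415 bases for the alpha pair and 430 for the beta pair. How reads that match both copies were counted is not given in the sources used here. The levels of a single copy are therefore uncertain. The sums over each pair are given beside them, but shared reads left out of the counts would be missing there too. Hbb-bs and Hbb-bt are also the adult beta genes of the reference strain, and some other mouse strains carry another pair in their place.

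The windows of 250 bases before the RefSeq start sites show how the pairs are built upstream (RefSeq, GRCm38.p6). The table used for these windows held 5 of the 7 genes: the 4 globin genes and Alas2. Capitals mark matches on either strand to the GATA motif (AGATAA with its variant TGATAA, and AGATAG with its variant TGATAG), to CACCC, to CCAAT and to ATATAA, a form of the TATA box, and neighbouring matches can overlap:
Hba-a1, chr11:32283422-32283671, plus strand: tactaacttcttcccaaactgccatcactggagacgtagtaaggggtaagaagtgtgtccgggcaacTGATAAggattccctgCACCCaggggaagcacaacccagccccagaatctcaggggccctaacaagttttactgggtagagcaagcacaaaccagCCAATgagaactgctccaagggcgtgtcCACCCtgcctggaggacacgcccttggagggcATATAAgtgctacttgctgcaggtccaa
Hbb-bs, chr7:103827929-103828178, minus strand: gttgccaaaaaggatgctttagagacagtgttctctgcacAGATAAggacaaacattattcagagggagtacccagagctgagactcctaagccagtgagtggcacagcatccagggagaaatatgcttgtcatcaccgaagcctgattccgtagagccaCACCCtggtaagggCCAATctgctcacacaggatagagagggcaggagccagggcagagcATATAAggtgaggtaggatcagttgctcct
Hbb-bt, chr7:103813924-103814173, minus strand: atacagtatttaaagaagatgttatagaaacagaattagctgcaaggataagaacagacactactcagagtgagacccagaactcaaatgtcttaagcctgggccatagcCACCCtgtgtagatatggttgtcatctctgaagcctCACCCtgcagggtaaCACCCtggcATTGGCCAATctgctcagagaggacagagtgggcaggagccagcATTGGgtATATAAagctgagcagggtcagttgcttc
Alas2, chrX:150547167-150547416, plus strand: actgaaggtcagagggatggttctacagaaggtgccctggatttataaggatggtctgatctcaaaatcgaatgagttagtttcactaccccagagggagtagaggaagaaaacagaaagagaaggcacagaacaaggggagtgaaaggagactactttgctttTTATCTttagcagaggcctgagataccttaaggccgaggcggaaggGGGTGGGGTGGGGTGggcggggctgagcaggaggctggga
The Hba-a2 window was identical to that of Hba-a1 over the 247 bases that overlap in an alignment, whereas the Hbb-bs and Hbb-bt windows matched at 185 of 239 aligned bases. The beta pair thus differs upstream while its coding sequence is almost shared. The ATATAA match stood 28 bases before the start in Hba-a1, 30 in Hbb-bs and 29 in Hbb-bt. CACCC matched 2 times in the Hba-a1 window, 1 time in Hbb-bs, 3 times in Hbb-bt and 3 times in Alas2. Among 32851 windows of the same length, 26.5% held a GATA match, 52.0% CACCC, 33.8% CCAAT and 9.10% ATATAA. These matches are letters only, not measured binding sites.

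The table gives FPKM, a fragment count scaled to gene length and library size, and whole reads per gene could be recovered from it. Summed over the 17744 genes, the recovered reads numbered 35024080 to 38113103 per library, so reads outside these genes are not included. The CD8 T cell genes of a fixed list had a summed level of 2591 to 2711 FPKM in the controls and 2255 to 2684 in the ultrasound libraries, with 9 of 10 genes listed. Cd8a had 286 to 314 FPKM in controls and 251 to 308 in ultrasound libraries. Ultrasound 2 and 3 stood apart from the other 4 libraries over all genes, so results are also given without ultrasound 1 and without ultrasound 2 and 3.

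The globins were measurable in all 6 libraries. Hba-a1, the leading alpha copy, had 39.9, 26.9 and 28.6 FPKM in controls 1, 2 and 3 and 37.7, 17.2 and 18.7 in ultrasound 1, 2 and 3. Ultrasound 1 lay between the controls, ultrasound 2 and 3 lay below all of them, and the groups overlapped. The control mean was 31.8 ± 7.08 and the ultrasound mean 24.5 ± 11.4 (SD, n = 3 each). Limma put the log2 change at -0.43 (standard error 0.30, adjusted p 0.350). Fold changes in log2 here are differences of log2(FPKM + 1), which understates the change of low genes.

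Hba-a2, the other alpha copy, had 17.1, 8.22 and 9.77 FPKM in controls 1, 2 and 3 and 14.7, 2.27 and 5.45 in the treated libraries. It showed the same order as Hba-a1, with ultrasound 1 inside the control range and ultrasound 2 lowest. Its log2 change was -0.81 with standard error 0.56 (limma adjusted p 0.333), and the controls alone spanned 2.08-fold. Reads numbered 340, 162 and 194 in controls and 291, 48 and 117 in ultrasound libraries.

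Hbb-bs, the more abundant beta copy and the highest of the 7 genes, had 56.6, 34.9 and 37.3 FPKM in controls and 45.9, 30.5 and 31.0 in ultrasound 1, 2 and 3. Ultrasound 2 and 3 were again below every control, by a smaller margin than for the alpha genes. The means were 43.0 ± 11.9 and 35.8 ± 8.73 (SD, n = 3 each). Limma put the log2 change at -0.25 (standard error 0.23, adjusted p 0.464).

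Hbb-bt had the widest separation of the 7 genes. It had 16.1, 10.6 and 13.3 FPKM in controls and 11.3, 2.96 and 3.17 in ultrasound 1, 2 and 3. Only ultrasound 1 overlapped the controls, lying just above control 2. The log2 change was -1.27 with standard error 0.43, and limma gave p 0.0228 unadjusted and 0.111 adjusted. In the authors' deposited table the log2 fold change is -1.32 with q 0.0876. Counted in reads, Hbb-bt had 357, 234 and 296 in controls, 250 in ultrasound 1 and 70 and 76 in ultrasound 2 and 3. The 2 last libraries had 731 and 755 reads of Hbb-bs.

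**Figure D1:**
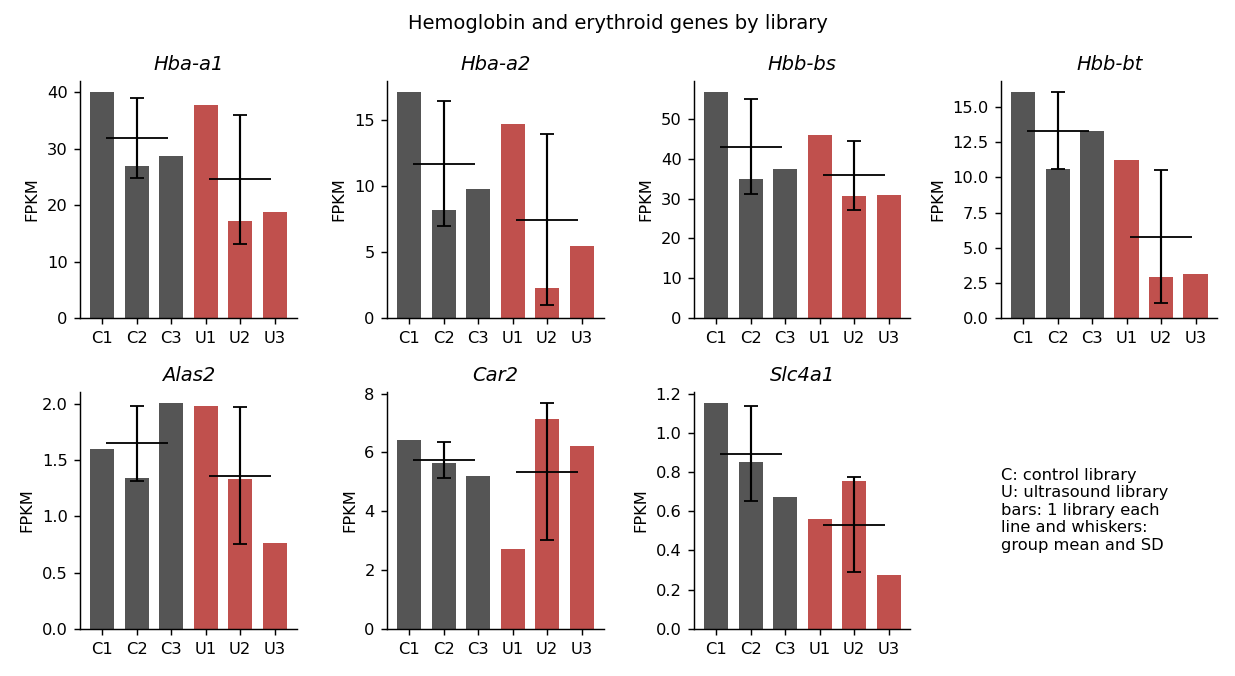
FPKM of the 7 genes in each library (C, control; U, ultrasound), with the line and whiskers giving each group's mean and SD (n = 3). Ultrasound 1 stands at the level of the controls for Hba-a1, Hba-a2 and Hbb-bs, while ultrasound 2 and 3 are the lowest libraries for all 4 globins; Car2 shows the opposite order among the ultrasound libraries, with ultrasound 1 lowest at 2.71 FPKM.

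Sums over the pairs remove the split between copies, but would still lack any shared reads left out of the counts. In RPM, reads scaled to the sum of recovered reads in the library, the alpha genes had 32.0, 19.7 and 21.5 in controls. They had 29.3, 10.9 and 13.5 in ultrasound 1, 2 and 3. The beta genes had 46.3, 29.0 and 32.3 RPM in controls and 36.4, 21.4 and 21.8 in ultrasound libraries. All 4 globins together came to 78.2, 48.7 and 53.7 RPM in controls and 65.8, 32.2 and 35.3 RPM in ultrasound 1, 2 and 3. The control mean was 1.78-fold the mean of ultrasound 2 and 3, and ultrasound 1 was 1.09-fold the control mean. Control 1 had the highest value of every globin among all libraries, so the spread within the controls was wide.

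The share of each copy within its pair differed between libraries, with 95% Wilson intervals that cover counting error only. Hbb-bt made up 21.8% (19.9% to 23.9%), 23.0% (20.5% to 25.7%) and 26.0% (23.5% to 28.6%) of beta reads in controls 1, 2 and 3. It made up 19.5% (17.4% to 21.8%) in ultrasound 1, 8.74% (6.98% to 10.9%) in ultrasound 2 and 9.15% (7.37% to 11.3%) in ultrasound 3. The intervals of ultrasound 2 and 3 lay below those of the other 4 libraries. The intervals leave out the spread between samples and the unknown assignment of shared reads. Hba-a2 made up 30.1%, 23.5% and 25.6% of alpha reads in controls and 28.2%, 11.8% and 22.7% in ultrasound 1, 2 and 3. For the alpha pair ultrasound 2 alone was low, at 11.8% (8.99% to 15.3%). Alpha reads were 40.8%, 40.4% and 40.0% of all globin reads in controls, and 44.6%, 33.7% and 38.3% in ultrasound libraries. Whether the counting of reads shared by the copies had a part in these shares was not tested.

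**Figure D2:**
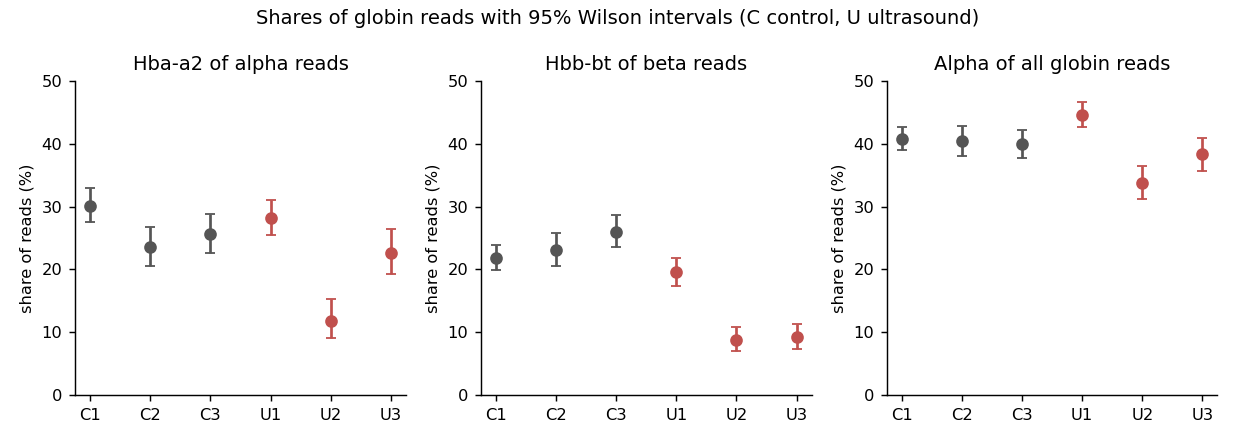
Share of reads in each library (C, control; U, ultrasound; points with 95% Wilson intervals) of Hba-a2 among alpha reads, Hbb-bt among beta reads and alpha among all globin reads. Hbb-bt stands at 8.74% and 9.15% in ultrasound 2 and 3 against 19.5% to 26.0% in the other libraries.

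Alas2, whose product makes the first heme precursor in red cell precursors, was low, with 1.60, 1.34 and 2.01 FPKM in controls and 1.98, 1.33 and 0.767 in ultrasound 1, 2 and 3. Ultrasound 1 was inside the control range, and ultrasound 3 was lowest, at 59 reads. The log2 change was -0.19 with standard error 0.21 (limma adjusted p 0.534). Alas2 lies on the X chromosome at chrX:150547375-150570638.

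Car2, at chr3:14886273-14900770, encodes a cytosolic carbonic anhydrase that red cells and several other cell types make. It had 6.42, 5.63 and 5.21 FPKM in controls and 2.71, 7.12 and 6.21 in ultrasound 1, 2 and 3. Among the ultrasound libraries its order was the reverse of that of the globins, with ultrasound 1 lowest and ultrasound 2 highest of all 6 libraries. The log2 change was -0.16 with standard error 0.29 (limma adjusted p 0.708). Ultrasound 1 against the controls gave a log2 change of -0.86 with limma adjusted p 0.0552, and without ultrasound 1 the change was 0.18 with limma adjusted p 0.181.

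Slc4a1, at chr11:102348824-102366203, had 1.15, 0.853 and 0.673 FPKM in controls and 0.562, 0.756 and 0.277 in ultrasound 1, 2 and 3. Ultrasound 2 lay inside the control range and ultrasound 1 and 3 below it. It missed the filter on low values, FPKM of at least 1 in 3 libraries, and so was not tested in the main comparison. With no filter its log2 change was -0.31 with standard error 0.16 and limma adjusted p 0.278. Reads were 185, 136 and 108 in controls and 90, 129 and 48 in ultrasound libraries.

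Between the groups, 0 of the 6 tested genes passed an adjusted p of 0.05 by limma, where 8.11% of all 10655 tested genes did (6.55% higher and 1.56% lower). At an unadjusted p under 0.05 there was 1 gene, Hbb-bt, against 31.2% of all tested genes. Limma on recovered reads with voom also gave 0 genes, and the authors' deposited table has 0 of the 7 at q under 0.05. None of the 6 had all ultrasound libraries on the same side of all controls, while 8.96% of tested genes were lower in this way and 25.9% higher. The log2 changes ran from -1.27 to -0.16 and their median was -0.34, beside a median of 0.09 over all genes tested. Over all genes 698 were called higher and 166 lower, whereas scaling by median of ratios made the split 293 and 144.

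The outcome turned on ultrasound 1. Without that library 3 of the 6 genes passed, all lower, where 53.7% of all genes passed and 19.7% passed as lower. These were Hbb-bt (log2 change -1.80, limma adjusted p 0.000486), Hba-a1 (-0.77, 0.0129) and Hba-a2 (-1.40, 0.0308). Hbb-bs had -0.44 with limma adjusted p 0.134, and Alas2 -0.38 with 0.0877. In the reverse setting, ultrasound 1 alone against the 3 controls, the log2 changes were 0.26 for Hba-a1, 0.37 for Hba-a2, 0.13 for Hbb-bs and -0.21 for Hbb-bt, with limma adjusted p from 0.611 to 0.853. There the lone ultrasound library is assumed to vary as the controls do. A globin level can be lower because fewer cells carry the transcript or because each holds less of it, and bulk samples cannot tell these apart.

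Other defining erythroid genes were low, and Ahsp, Klf1, Car1 and Epor ordered the ultrasound libraries differently from the globins. Ahsp, which encodes a chaperone of free alpha-globin, had 44, 30 and 34 reads in controls and 8, 33 and 18 in ultrasound 1, 2 and 3. Its log2 change was -0.61 (limma adjusted p 0.142). In ultrasound 1 Ahsp was 4.50-fold lower than the control mean in RPM, whereas Hba-a1 was 1.19-fold and Hbb-bs 1.07-fold the control mean. Klf1, an erythroid transcription factor gene, had 2 to 12 reads in any library, and Gata1, shared with megakaryocytes, eosinophils and mast cells, had 58 to 75. The erythropoietin receptor gene Epor had 17 to 20 reads in controls and 31, 41 and 63 in ultrasound libraries. It missed the filter of the main comparison, and with no filter limma gave adjusted p 0.136. Car1, the other erythroid carbonic anhydrase gene, had 55 reads in ultrasound 1 and 10 to 37 elsewhere, whereas Car2 was lowest in ultrasound 1.

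**Figure D3:**
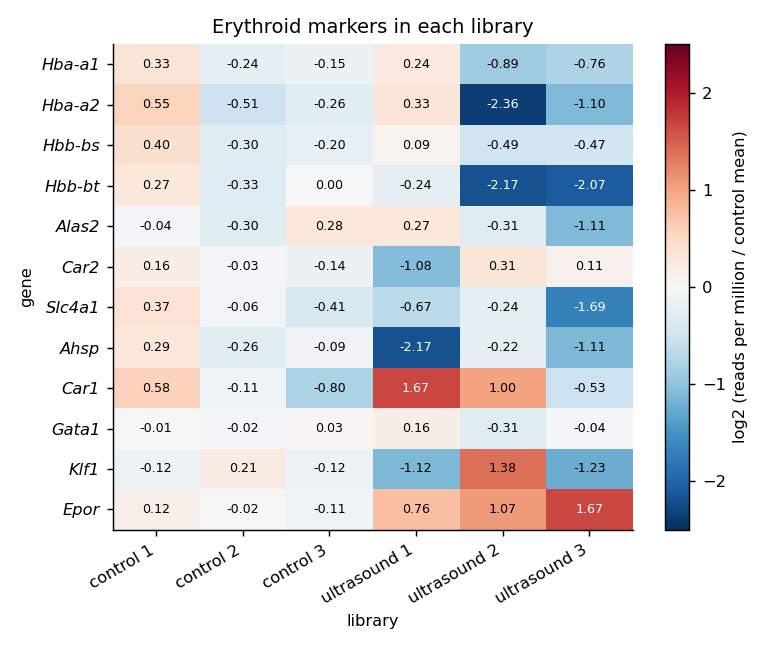
Log2 ratio of each library's RPM to the control mean, for the 7 genes and 5 further erythroid genes. The globins are low in ultrasound 2 and 3, with Hbb-bt at -2.17 and -2.07, while Ahsp and Car2 are lowest in ultrasound 1, at -2.17 and -1.08.

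A further 7 lists of other genes of the pathway were examined, with 95 of their 102 genes in the table and 62 tested. Of these 62, limma called 11 higher and 1 lower, where 6.55% of all tested genes were called higher and 1.56% lower. Their median log2 change was 0.28, beside 0.09 over all genes and -0.34 over the 6 tested members. At an unadjusted p under 0.05 there were 31, where 31.2% of all tested genes were under it. Single libraries decided how many were called: 39 passed when ultrasound 1 was left out, where 53.7% of all tested genes did. With control 2, control 3, ultrasound 2 or ultrasound 3 left out, 0 passed, and 0 of all tested genes did. In those settings 22 to 25 of the 62 had an unadjusted p under 0.05 by limma, beside 1962 to 2154 of all 10655 tested genes.

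In heme synthesis 2 of 13 tested genes were called, both higher, where 6.55% of all tested genes were called higher. Alas1, the form of the same enzyme used outside red cells, had 7.10, 6.52 and 6.50 FPKM in controls and 11.9, 11.4 and 12.0 in ultrasound 1, 2 and 3 (log2 change 0.73, limma adjusted p 0.0297). The groups did not overlap, and ultrasound 1 moved with ultrasound 2 and 3, unlike for Alas2. Abcb10, a mitochondrial transporter that acts with the iron importer of that organelle, rose by 0.64 on the log2 scale (limma adjusted p 0.0389). The later enzymes were not called, with log2 changes from -0.07 for Cpox to 0.29 for Urod. Tmem14c and Ppox, the most abundant of the list, had 0.17 and 0.25.

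Beside 6.55% of all tested genes, 3 of 10 tested iron uptake and storage genes were called higher. These were Hfe (log2 change 1.47), Ftl1, the ferritin light chain (0.82), and Steap3, an iron reductase of the endosome (0.60). Tfrc, the transferrin receptor that red cell precursors use to take up iron, had 21.0, 21.5 and 19.6 FPKM in controls and 17.2, 7.39 and 5.68 in ultrasound 1, 2 and 3. Every ultrasound library was below every control, but limma gave adjusted p 0.0921. In the authors' deposited table Tfrc has a log2 fold change of -1.16 with q 0.0282, which passes 0.05. Activated T cells also use Tfrc.

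In the red cell membrane list, 17 of 21 genes missed the filter on low values. Of the skeleton genes, Ank1 had 37, 21 and 24 reads in controls and 47, 36 and 13 in ultrasound 1, 2 and 3. Epb42 had 9, 13 and 14 reads in controls and 1, 6 and 5 in ultrasound libraries, and was not tested. Of the 4 tested genes 0 were called, with 0 at an unadjusted p under 0.05 by limma and 0 by voom. The most abundant were Slc2a1, a glucose transporter, at a log2 change of -0.16, and Epb41, a skeleton protein that many cells make, at 0.15. Among factors and signalling genes 2 of 13 were called, where 8.11% of all tested genes were. Nfe2, used in red cells, megakaryocytes and myeloid cells, rose from 1.54, 0.743 and 0.949 FPKM in controls to 5.59, 5.48 and 10.3 (log2 change 1.93, limma adjusted p 0.0297), and Myb, a factor of progenitors, fell by 0.45 on the log2 scale (limma adjusted p 0.0385). Of 11 tested late enzymes, Gpx1, a glutathione peroxidase, was the gene called, with a log2 change of 1.31 (limma adjusted p 0.0312).

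Heme and iron recycling is the task of red pulp macrophages. Of its 10 tested genes 4 were called, all higher, where 6.55% of all tested genes were called higher. Of the 10, 8 had every ultrasound library above every control, where 25.9% of all genes did. Hmox1, the heme-degrading enzyme gene, had 70.7, 43.7 and 43.7 FPKM in controls and 206, 117 and 175 in ultrasound libraries (log2 change 1.64, limma adjusted p 0.0304). Hp, which encodes the hemoglobin-binding protein haptoglobin, had 18.9, 7.13 and 8.39 FPKM in controls and 73.0, 47.6 and 98.7 in ultrasound libraries (log2 change 2.63). The iron exporter gene Slc40a1 and the heme transporter gene Slc48a1 rose by 1.13 and 0.98 on the log2 scale. Beside this, 12 of 12 listed macrophage and monocyte genes had positive log2 changes, where 6569 of all 10655 tested genes did. Of the 12, 5 were called higher and 7 were not called. Their summed level was 786 to 1170 FPKM in controls and 2273 to 3892 in ultrasound libraries. Within this sum Lyz2 alone had 499, 209 and 207 FPKM in controls and 1430, 1513 and 2721 in ultrasound 1, 2 and 3. The part of such cells in the recycling genes was not tested.

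**Figure D4:**
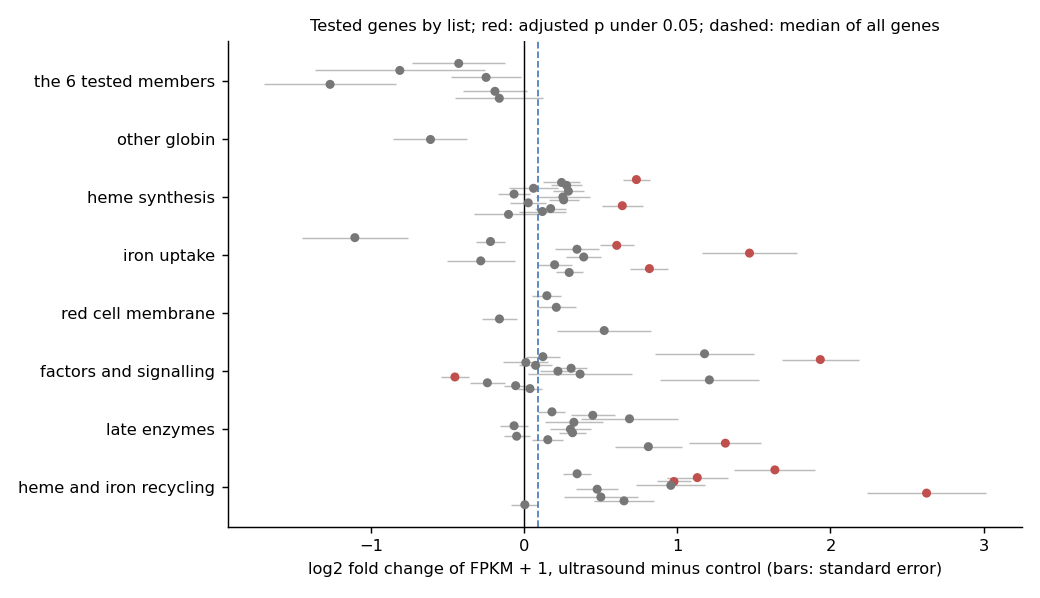
Log2 fold change of FPKM + 1 (ultrasound minus control, bars giving the standard error) for the tested members and the tested genes of 7 further lists; red points passed an adjusted p of 0.05 by limma, and the dashed line is the median of all genes, 0.09. The 6 tested members lie below 0, and 4 of 10 heme and iron recycling genes are called higher, where 6.55% of all tested genes are.

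Marker sums of other cells were set beside the globins. The neutrophil list summed to 585, 193 and 198 FPKM in controls and 2414, 658 and 699 in ultrasound 1, 2 and 3. The B cell list summed to 368, 239 and 239 in controls, 177 in ultrasound 1 and 928 and 811 in ultrasound 2 and 3. Control 1, the library with the highest globins, also had the highest neutrophil, B cell and macrophage sums among the controls. The platelet list was low, at 6.33 to 8.81 FPKM in controls and 11.5 to 14.1 in ultrasound libraries, with Gp1ba and Treml1 at 0 reads in at least 1 library. The part of these cells in the globin values was not tested.

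The genes whose levels over the 6 libraries were most like the mean of the 7 members were Gm6377, Atp5k, Pmaip1, Gm11703, Gm34865, Ptgs2, Rplp2, Rbis, Rps28 and Polr2k. Pearson's r ran from 0.971 to 0.996 over 6 libraries, as a description of the 10 highest among 1668 ranked genes, with libraries that fall into clusters. Rps28, a ribosomal protein gene, had 1839, 1452 and 1619 FPKM in controls and 1402, 773 and 772 in ultrasound 1, 2 and 3. Atp5k, a subunit of ATP synthase, had 107, 72.1 and 81.4 and then 70.7, 37.4 and 39.0. Of the 10, 6 had a gene length under 700 bases, against 3.07% of all tested genes, and the globin genes have lengths of 559 to 639 bases. The share of such short genes among the 1668 ranked genes was not counted, and it may differ.

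Gene length was therefore set beside the globin values, a comparison chosen after the data were seen. Among 212 tested genes of 500 to under 700 bases, the median difference between ultrasound 2 and 3 and the controls was 0.09, with quartiles of -0.28 and 0.40 on the log2 scale. For 115 genes under 500 bases it was -0.17. Hbb-bs lay at -0.44, Hba-a1 at -0.77, Hba-a2 at -1.40 and Hbb-bt at -1.80, all below the lower quartile of their length class. In ultrasound 1 the median of that class was 0.02. The part of length in the globin values was not tested.

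**Figure D5:**
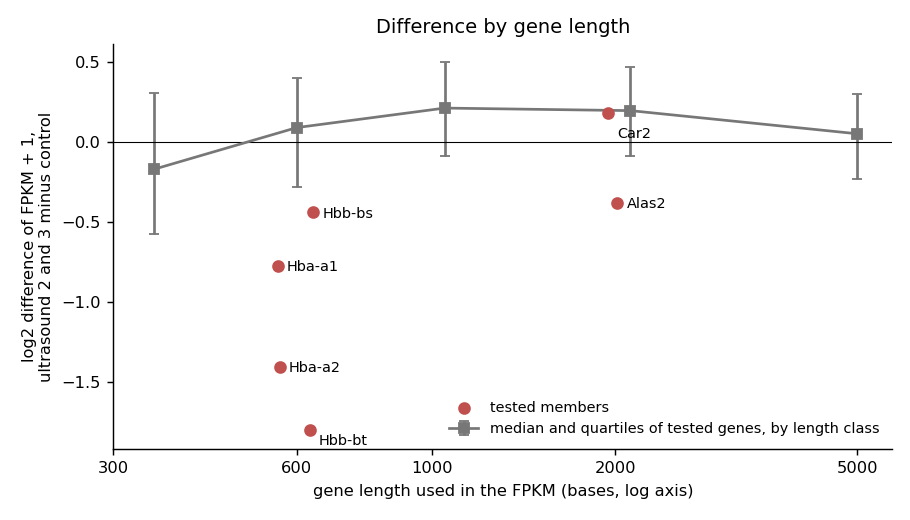
Log2 difference of FPKM + 1 between the mean of ultrasound 2 and 3 and the control mean, against gene length (log axis): squares give the median and quartiles of tested genes in 5 length classes, each at a middle length of its class, and red points the 6 tested members. The 4 globins lie between -0.44 and -1.80, and Car2 at 0.18.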

How the data were processed

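CD8 T cells were profiled by RNA-seq in 3 control and 3 ultrasound libraries, grouped and numbered by their titles. HISAT2, HTSeq, DESeq2, R 3.2.0 and mm10 are named in the submitters' processing notes, without roles. The FPKM values are the authors', per the file headers. Group means of DESeq2 normalized counts (a signal unit), fold ratios, log2 fold changes, p-values and q-values are also the authors', per the file headers. A filtered copy of the table was not used.

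Testing used log2(FPKM + 1) of genes reaching FPKM 1 in 3 or more libraries, by limma 3.58.1 with the trend and robust options (R 4.3.3), two-sided, with Benjamini-Hochberg adjustment over all 10655 genes and a threshold of 0.05. The group means and FPKM values obey a linear relation that returns whole reads: 100% of 77578 values under 2000 reads lay within 0.05 of a whole number. Intervals reflect counting error of reads alone. Reads carry no molecular identifiers, so repeated reads of 1 molecule count separately, and the intervals may be too narrow. The scripts were tested on simulated data.

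Members and lists were chosen with earlier results of these data known. Named genes are the members, the genes of the lists that passed or otherwise the 2 most abundant, and the 10 genes most like the members by Pearson r, over 6 libraries, with their mean centred log2 profile, among genes with a mean FPKM of at least 1 and a log2 range of at least 1. Other names are listed markers or were picked with their values known. The alternatives were other scalings, filters and pseudocounts, limma without the robust option, voom, a replicate block, left-out libraries and the q-values of the authors. Python 3.11.15 made the tables, with pandas 2.3.3 and numpy 2.4.6. Values of some listed genes are not reported here.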

Additional observations from a re-analysis of the deposited data

Results flagged for a closer look

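Hbb-bh1, an embryonic beta-type globin gene below the filter of the comparison, had 8 reads in ultrasound 2 and 7 in ultrasound 3, against 1 read in each control and 0 in ultrasound 1. Cd59a, a complement regulator gene of the red cell membrane list, had 17 reads in ultrasound 1 and 19 in ultrasound 2, against 5, 1 and 0 in the controls and 2 in ultrasound 3. Both were picked out because at least 2 ultrasound libraries had over 3 reads and over 3 times the highest control in RPM, in genes below the filter of the main comparison. With no filter neither passed by limma, with adjusted p 0.309 for Hbb-bh1 and 0.247 for Cd59a, and in the authors' deposited table q is 0.475 and 0.274.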

How the results depend on the processing

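The count of members called stayed at 0 under all settings run except without ultrasound 1; leaving out each library in turn gave 0 to 3 members, 0 to 39 other erythroid genes and 0 to 5727 genes in all. All genes called numbered 437 with median-of-ratios size factors, 2179 in the authors' deposited table, 567 without control 1 and 49 for ultrasound 1 against the controls. The count was 0 with no filter and 0 when control 2, control 3, ultrasound 2 or ultrasound 3 was left out. In these 5 settings 4216, 1962, 2154, 2058 and 1998 genes had an unadjusted limma p under 0.05. The other erythroid genes called, 12 of 62 as reported, numbered 20 of 95 in the authors' deposited table, where 12.3% of all genes passed. With no filter 0 of 95 passed by limma. There 34 of the 95 had an unadjusted limma p under 0.05, beside 4216 of all 17744 genes.

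The labels do not say whether equal replicate numbers pair the libraries. Over all tested genes, the deviations of same-numbered libraries from their group means had correlations of -0.041, 0.051 and 0.058, which cannot settle it. With the replicate block 0 genes, 0 members and 0 other erythroid genes passed limma, with 3249, 4 and 29 at an unadjusted p under 0.05. Without the block 3321, 1 and 31 had an unadjusted limma p under 0.05.

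Log2 changes of members reversed in 6 results. For ultrasound 1 against the controls they were 0.26 for Hba-a1, 0.37 for Hba-a2, 0.13 for Hbb-bs and 0.18 for Alas2. Without ultrasound 1 Car2 had 0.18, and without ultrasound 3 Alas2 had 0.0016. Leaving out single libraries gave -0.38 (without ultrasound 1) to 0.0016 for Alas2, and -0.38 (without ultrasound 2) to 0.18 for Car2. For the globins it gave -0.77 (without ultrasound 1) to -0.23 (without ultrasound 2) for Hba-a1, -1.40 to -0.27 for Hba-a2 with the same libraries left out, -0.44 (without ultrasound 1) to -0.04 (without control 1) for Hbb-bs, and -1.80 (without ultrasound 1) to -0.98 (without ultrasound 2) for Hbb-bt. Hba-a1 had -0.26 and Hba-a2 -0.53 without control 1, and without ultrasound 3 Hba-a1 had -0.29 and Hbb-bs -0.16. Without control 2 Hbb-bs had -0.38, and without ultrasound 2 it had -0.15. The cause was not tested. Hbb-bt kept its direction under all 16 alternatives, from -1.80 to -0.21. Depth limits Slc4a1 and Ahsp, with 8 to 185 reads per library.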

Other observations

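Some genes of the erythroid lists that missed the filter on low values had reads in ultrasound 2 that the other libraries did not approach. Dmtn, which encodes the red cell skeleton protein dematin, had 124 reads in ultrasound 2 and 1 to 13 elsewhere. Add2, an adducin gene, had 106 reads there, 16 in ultrasound 3 and 3 to 9 elsewhere. Both are also expressed in brain. Gfi1b, a repressor gene of red cells and megakaryocytes, had 21, 12 and 9 reads in controls and 114, 37 and 59 in ultrasound 1, 2 and 3. These genes were chosen after their values were seen. With no filter, limma gave adjusted p 0.531 for Dmtn, 0.369 for Add2 and 0.134 for Gfi1b. In the authors' deposited table q is 0.347 for Dmtn, 0.0330 for Add2 and 0.0122 for Gfi1b, so that Add2 and Gfi1b pass 0.05 there.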
